A study of Mus musculus with 23 samples.

Results

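Messenger RNA levels of 10 genes that mark the stem cells of the intestinal crypt or respond to Wnt signalling were followed in the mouse colon: Lgr5, Ascl2, Olfm4, Smoc2, Axin2, Rnf43, Sox9, Cd44, Myc and Ephb2. They were named by their function, with earlier results of these data known. Of the 10, 9 had at least 1 probe set annotated to that gene alone, 19 probe sets in all, out of 18194 genes and 34958 such probe sets on the arrays. Ephb2, a receptor tyrosine kinase that positions cells along the crypt, had no such probe set and was not analysed here. Each gene is given by its brightest probe set, averaged over the 23 arrays, and its other probe sets are described beside it.

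Total colon RNA of BALB/c mice was hybridised to 23 Affymetrix arrays, 1 for each sample. The 4 groups were Fn14 knockout mice with TNBS (7 samples), Fn14 knockout mice without TNBS (5), wild-type mice with TNBS (6) and wild-type mice without TNBS (5). Fn14, encoded by Tnfrsf12a, binds the cytokine TWEAK. The hapten TNBS, given in ethanol, provokes colitis. It was given rectally at 0.2% for 6 weeks, the dose volume was raised from 1 to 2 ul per g body weight, and the colons were collected 3 days later. The labels describe the knockout allele no further. Untreated below means that the label names no TNBS. The labels do not say whether those mice received the solvent, nor the age of the mice, nor whether numbered samples came from separate mice, so p-values measure the spread between samples, which may be technical.

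The crypt is renewed by stem cells at its base, which are kept by Wnt ligands and R-spondins from neighbouring cells. Wnt signalling stabilises beta-catenin, which enters the nucleus and, with TCF and LEF factors, switches on target genes. Several of these targets, among them Axin2 and Rnf43, restrain the pathway in turn.

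The values are deposited log2 levels, so a difference of 1 is a doubling. The lowest value was 2.17, and values at or near it are treated here as a floor. Levels are compared between groups for the same probe set and not between genes. Differences are first group minus second with the standard error (SE), tested with limma over all genes at a Benjamini-Hochberg adjusted p of 0.05. Tnfrsf12a averaged 4.06 ± 0.11 in TNBS-treated knockouts, 4.11 ± 0.06 in untreated knockouts, 7.35 ± 0.51 in TNBS-treated wild types and 6.65 ± 0.52 in untreated wild types (SD). No knockout array was above 4.17 and no wild-type array below 5.86. The epithelial gene Epcam averaged 13.69 to 13.82 over the groups. Arrays of a group correlated at 0.989 to 0.998. Wild-type replicate 3, untreated, stood apart: the distal colon gene Hoxd13 was at 5.40 there, against 11.05 to 11.30 in the other untreated wild types, and Hoxb13 was at 10.09, against 11.88 to 12.02.

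TNBS changed 4 of the 9 measured genes in wild-type colon. Smoc2 and Rnf43 rose, and Ascl2 and Axin2 fell. Of all 18194 genes, 16.5% passed in that comparison (10.2% higher, 6.27% lower), and with so few members the 4 of 9 are given as a count only. Shares and medians over all genes, here and below, include 1658 genes at the lowest value on all 23 arrays, which could not pass. In knockout colon 0 of 9 genes passed with limma, against a background of 8.55%, and 1 (Ascl2) had an unadjusted p under 0.05. Between untreated genotypes 1 of 9 passed (Rnf43, higher in knockouts), against a background of 4.83%, of which 2.92% were higher. With TNBS 1 of 9 passed (Axin2, higher in knockouts), against 10.5%, of which 3.73% were higher. The difference between the TNBS effects of the genotypes passed for 0 of 9 genes with limma, against 2.00% of all genes, and for 2 (Axin2 and Rnf43) its unadjusted p was under 0.05. The median difference over the 9 genes was 0.11 for TNBS in wild types, 0.00 for TNBS in knockouts, 0.02 between untreated genotypes, -0.08 between TNBS-treated genotypes and -0.03 for the difference of effects, and the median over all genes was 0 in each. Groups did not overlap for 0 of the 9 genes with TNBS in wild types (10.1% of all genes), 0 with TNBS in knockouts (3.87%), 1 between untreated genotypes (5.56%) and 0 between TNBS-treated genotypes (3.63%). The comparisons share groups and are not independent of one another.

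**Figure D1:**
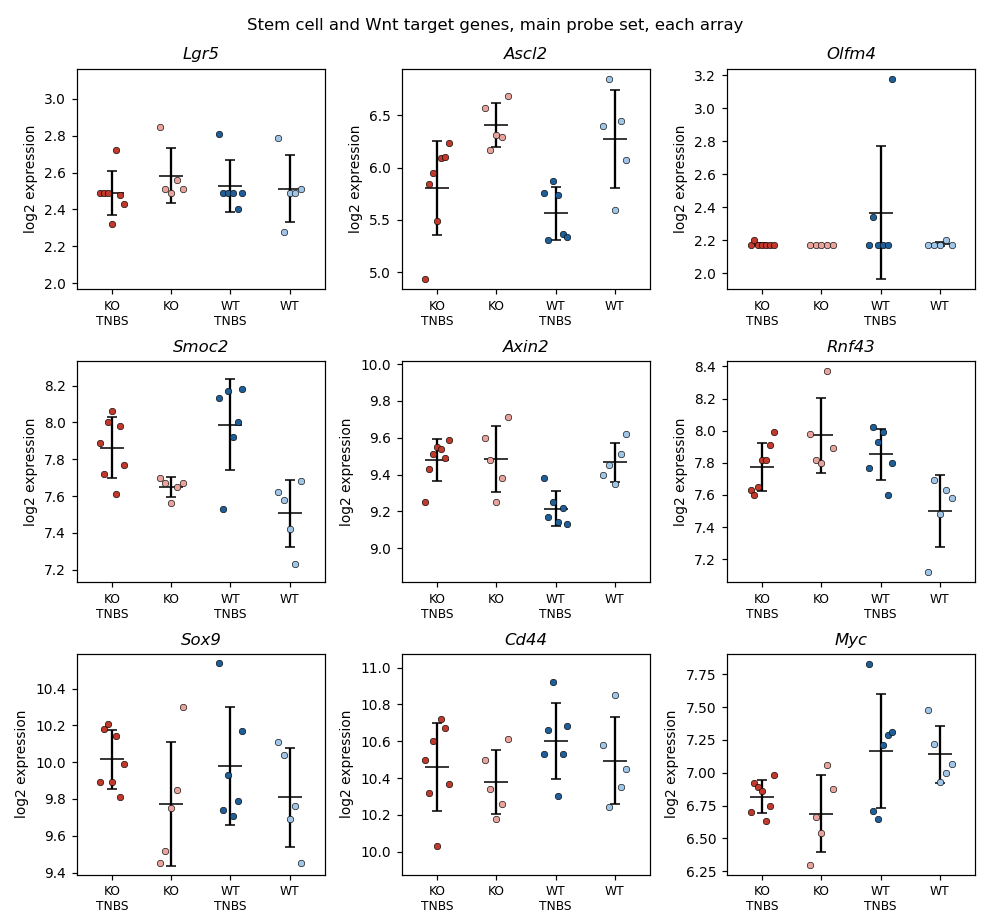
Log2 level (y axis) of each measured gene on every array, by group (x axis). Points are arrays, and horizontal lines with bars are means ± SD. By group mean, Ascl2 and Axin2 are lowest in TNBS-treated wild types, Smoc2 is highest there, Rnf43 is lowest in untreated wild types, and Lgr5 and Olfm4 lie near the floor of 2.17.

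Promoter windows of 300 bases follow for Ascl2, Axin2 and Rnf43, the genes that changed and have an entry in the promoter table, because Wnt targets are switched on through TCF and LEF factors at such regions. They run from 250 bases before to 50 bases after an annotated start, 5′ to 3′ on the gene's strand, and capitals mark the 50 bases from the start (RefSeq, mouse assembly GRCm38.p6). Ascl2 lies at chr7:142969215-142969514 on the minus strand, Axin2 at chr11:108920099-108920398 on the plus strand, and the first of the Rnf43 starts at chr11:87662837-87663136 on the plus strand.
Ascl2: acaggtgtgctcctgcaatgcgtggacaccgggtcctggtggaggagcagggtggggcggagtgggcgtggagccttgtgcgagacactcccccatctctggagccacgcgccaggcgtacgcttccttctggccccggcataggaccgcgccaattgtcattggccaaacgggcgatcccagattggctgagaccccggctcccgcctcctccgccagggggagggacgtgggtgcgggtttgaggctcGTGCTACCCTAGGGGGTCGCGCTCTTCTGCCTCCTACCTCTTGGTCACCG
Axin2: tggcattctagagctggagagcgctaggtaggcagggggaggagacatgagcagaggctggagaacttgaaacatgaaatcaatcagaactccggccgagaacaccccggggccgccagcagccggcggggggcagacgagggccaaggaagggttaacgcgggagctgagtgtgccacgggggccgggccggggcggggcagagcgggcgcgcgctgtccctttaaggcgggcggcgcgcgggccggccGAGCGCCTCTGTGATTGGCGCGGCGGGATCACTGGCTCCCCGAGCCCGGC
Rnf43: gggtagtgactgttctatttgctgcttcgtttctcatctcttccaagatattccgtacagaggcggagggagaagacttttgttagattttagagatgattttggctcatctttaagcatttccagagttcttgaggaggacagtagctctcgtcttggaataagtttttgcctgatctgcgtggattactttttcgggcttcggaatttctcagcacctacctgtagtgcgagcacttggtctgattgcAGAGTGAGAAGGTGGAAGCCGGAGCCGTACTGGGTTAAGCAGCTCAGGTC
The Ascl2 and Axin2 windows are 67% and 70% G and C and hold 23 and 31 CpG, and the Rnf43 window is 46.7% G and C with 10 CpG, against medians of 52.7% and 7 over 32851 promoters. The TCF/LEF words searched on both strands were CTTTGAA (in 5.14% of all promoters), CTTTGAT (in 3.73%), CTTTGTA (in 3.63%) and CTTTGTT (in 5.85%). At least 1 is in 0 of the 7 windows that the table holds for 6 of the 10 genes, and in 16.9% of all promoters. No match says only that these letters are not in these windows.

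Among the stem cell genes, Ascl2, a transcription factor that sets the identity of crypt stem cells, was lower with TNBS in wild-type colon. Its lowest, median and highest levels were 5.31, 5.55 and 5.87 in TNBS-treated wild types, and the untreated wild types were at 6.40, 6.85, 5.59, 6.44 and 6.07. The groups overlapped through 1 array, wild-type replicate 3 at 5.59. Ascl2 fell by 0.71 (SE 0.22, 95% interval -1.17 to -0.24, adjusted p = 0.0337), and without replicate 3 the difference was -0.88 (adjusted p = 0.00878). In knockouts the levels were 4.93, 5.95 and 6.23 with TNBS, against 6.57, 6.17, 6.31, 6.29 and 6.68 untreated. There the difference was -0.60 (SE 0.21, interval -1.05 to -0.15), with an adjusted p of 0.0901. The TNBS effects of the genotypes differed by 0.11 (interval -0.54 to 0.75, adjusted p = 0.988). Ascl2 did not pass between genotypes, at 0.14 untreated (adjusted p = 0.938) and 0.24 with TNBS (adjusted p = 0.549). The call in wild types was lost without untreated replicate 1, 2 or 4 or TNBS-treated replicate 2, 5 or 6, with differences of -0.68 to -0.56 and adjusted p-values of 0.0635 to 0.107. A second probe set gave -0.55 in wild types and -0.66 in knockouts (adjusted p = 0.112 and 0.0736 over all probe sets), and the last stood at the floor.

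Smoc2, a secreted calcium-binding matrix protein that marks Lgr5-positive cells and is also made by stromal cells, rose with TNBS in wild types. It was at 7.53, 8.07 and 8.18 (lowest, median, highest) with TNBS, and at 7.62, 7.58, 7.42, 7.23 and 7.68 untreated. TNBS-treated replicate 2, at 7.53, was the only TNBS-treated array below the highest untreated one. Smoc2 was 0.48 higher (SE 0.11, interval 0.26 to 0.71, adjusted p = 0.00395, 1.40-fold). In knockouts it was at 7.61, 7.89 and 8.06 with TNBS and at 7.70, 7.67, 7.56, 7.65 and 7.67 untreated, a difference of 0.21 (interval 0.00 to 0.43, adjusted p = 0.231). The TNBS effects differed by -0.27 (interval -0.58 to 0.04, adjusted p = 0.415), and no comparison between genotypes passed. The call held when any 1 array was left out. It was lost with the fibroblast mean (0.28, adjusted p = 0.259) or the squamous mean (0.38, adjusted p = 0.0643) as a covariate, and against a minimum change of 0.25 (adjusted p = 0.326). A second Smoc2 probe set gave 0.41 in wild types (adjusted p = 0.126) and 0.08 in knockouts.

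Lgr5, the R-spondin receptor that defines crypt base stem cells, lay close to the floor in every group. Its levels were 2.32, 2.49 and 2.72 in TNBS-treated knockouts, 2.49 to 2.85 in untreated knockouts, 2.40, 2.49 and 2.81 in TNBS-treated wild types and 2.28 to 2.79 in untreated wild types. No comparison passed, and differences ranged from -0.11 to 0.07. The second probe set read 2.17 to 2.45. Olfm4, a secreted glycoprotein that marks stem cells of the mouse small intestine, stood at the lowest deposited value on 6 of 7 TNBS-treated and 5 of 5 untreated knockout arrays, and on 4 of 6 TNBS-treated and 4 of 5 untreated wild-type arrays. Its highest level was 3.18, in TNBS-treated wild-type replicate 6. For both genes these arrays allow no statement about change.

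Axin2, a scaffold of the complex that degrades beta-catenin and itself a Wnt target, was lower with TNBS in wild types. Its levels were 9.13, 9.19 and 9.38 with TNBS and 9.40, 9.45, 9.35, 9.51 and 9.62 untreated. The groups overlapped by the TNBS-treated replicate 1 at 9.38 and the untreated replicate 3 at 9.35. Axin2 fell by 0.25 (SE 0.07, interval -0.41 to -0.09, adjusted p = 0.0259). In knockouts the levels were 9.25, 9.51 and 9.59 with TNBS and 9.60, 9.48, 9.25, 9.38 and 9.71 untreated, a difference of 0.00 (SE 0.07, interval -0.15 to 0.15, adjusted p = 1). Axin2 was 0.27 higher in TNBS-treated knockouts than in TNBS-treated wild types (SE 0.07, interval 0.12 to 0.41, adjusted p = 0.0175), where 6 of 7 knockout arrays lay above every wild-type array. Untreated, the genotypes differed by 0.02 (adjusted p = 1). The TNBS effects of the genotypes differed by 0.25 (interval 0.03 to 0.47, unadjusted p = 0.0274, adjusted p = 0.238), so a difference in effect did not pass. The wild-type call was lost without untreated replicate 4 or 5 or TNBS-treated replicate 4 or 6 (-0.24 to -0.21, adjusted p = 0.0519 to 0.0728), and the call between TNBS-treated genotypes was kept whichever array was left out. That call was lost with the fibroblast mean as a covariate (0.30, adjusted p = 0.063) and against a minimum change of 0.25 (adjusted p = 1), and the mean of both probe sets gave 0.12 (adjusted p = 0.0332). A second Axin2 probe set lay near the floor, at 2.18 to 2.35.

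Rnf43, a ubiquitin ligase that removes Wnt receptors from the cell surface, was higher in untreated knockouts, and in TNBS-treated wild types, than in untreated wild types. Its levels were 7.98, 7.82, 7.80, 8.37 and 7.89 in untreated knockouts and 7.12, 7.69, 7.48, 7.63 and 7.58 in untreated wild types, and these groups did not overlap, as for 5.56% of all genes. The difference was 0.47 (SE 0.12, interval 0.23 to 0.72, adjusted p = 0.0263, 1.39-fold). Skeletal muscle markers also differed in this comparison: 3 of 7 were higher. Their summed linear signal was 866 to 4138 in untreated knockouts and 72 to 431 in untreated wild types. With TNBS that sum was 646 to 6613 in knockouts and 100 to 3330 in wild types, a comparison in which Rnf43 did not pass. Of other lists, the colonocyte genes Car4 and Slc26a3 were higher in untreated knockouts, by 0.29 and 0.21 (limma, adjusted p = 0.0428 and 0.0366). The epithelial gene Lgals4 was higher by 0.05 and the small intestinal gene Rbp2 by 0.96 (adjusted p = 0.0305 and 0.0254). The fibroblast gene Col1a1 was lower (difference -0.52, adjusted p = 0.0194). Over 38 alternative runs the colonocyte calls ranged from 0 to 3 and changed in at least 23. Epithelial, fibroblast and small intestinal calls changed in 12, 5 and 11 runs. Rnf43 did not pass with the epithelial mean (0.45, adjusted p = 0.0704) or the fibroblast mean (0.44, adjusted p = 0.0785) as a covariate. The part of muscle, colonocyte and small intestinal markers was not tested. With TNBS, wild types stood at 7.60, 7.86 and 8.02, which is 0.35 above untreated wild types (SE 0.11, interval 0.11 to 0.59, adjusted p = 0.0387). TNBS-treated knockouts were at 7.60, 7.82 and 7.99, -0.20 from untreated knockouts (interval -0.42 to 0.03, adjusted p = 0.317) and -0.08 from TNBS-treated wild types (adjusted p = 0.795). The TNBS effects of the genotypes differed by -0.55 (SE 0.16, interval -0.88 to -0.22, unadjusted p = 0.00244, adjusted p = 0.0754), and the adjusted p was 0.0477 when dim genes were left out. The rise in wild types was lost without untreated replicate 1 or 3 or TNBS-treated replicate 2, 3, 4 or 6 (0.26 to 0.36, adjusted p = 0.0535 to 0.133), and the difference between untreated genotypes without wild-type replicate 1 or knockout replicate 4 (0.38 and 0.37, adjusted p = 0.0737 and 0.0727).

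**Figure D2:**
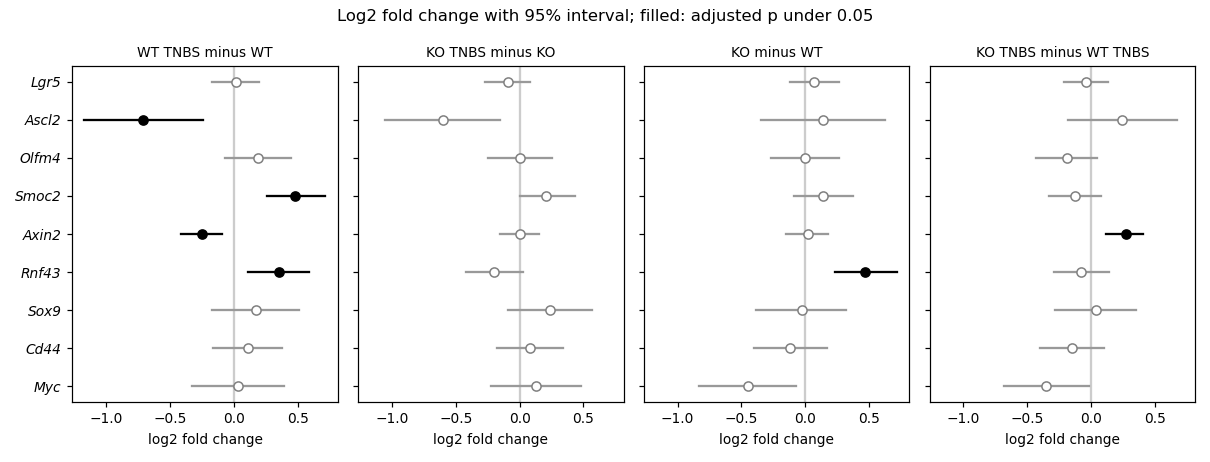
Log2 difference (x axis) of each measured gene (y axis) in each comparison, with its 95% interval; filled points passed at an adjusted p of 0.05. Smoc2 at 0.48 and Ascl2 at -0.71 stand farthest from 0 in wild types, and Rnf43 at 0.47 between untreated genotypes.

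Sox9, a transcription factor of crypt base cells, was at 9.81, 9.99 and 10.21 in TNBS-treated knockouts, 9.45, 9.52, 9.75, 9.85 and 10.30 in untreated knockouts, 9.71, 9.86 and 10.54 in TNBS-treated wild types and 10.11, 10.04, 9.69, 9.76 and 9.45 in untreated wild types. All groups overlapped. The TNBS difference was 0.24 in knockouts and 0.17 in wild types (adjusted p = 0.422 and 0.584). Its other probe sets read 5.70 to 6.89 and 2.21 to 2.25, and none of their comparisons passed. Myc, a transcription factor that drives growth and division, was at 6.63, 6.86 and 6.98 in TNBS-treated knockouts, 6.30, 6.66, 6.54, 7.06 and 6.88 in untreated knockouts, 6.65, 7.25 and 7.83 in TNBS-treated wild types and 7.48, 7.22, 6.93, 7.0 and 7.07 in untreated wild types. Knockouts were lower without passing, by -0.45 untreated (interval -0.83 to -0.07, unadjusted p = 0.0224, adjusted p = 0.169) and -0.35 with TNBS (interval -0.68 to -0.02, unadjusted p = 0.0406, adjusted p = 0.19). TNBS differences of Myc were 0.13 in knockouts and 0.03 in wild types (adjusted p = 0.791 and 1).

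Cd44, an adhesion receptor for hyaluronan that is a Wnt target in crypts and is also carried by leukocytes, gave different answers by probe set. Its brightest probe set averaged 10.46 ± 0.24 in TNBS-treated knockouts, 10.38 ± 0.18 in untreated knockouts, 10.60 ± 0.21 in TNBS-treated wild types and 10.49 ± 0.24 in untreated wild types (SD), and no comparison passed. The second brightest read 9.65, 9.91 and 10.07 in TNBS-treated knockouts against 10.04, 10.24 and 10.40 in TNBS-treated wild types. It was 0.35 lower in the knockouts (difference -0.35, SE 0.09, adjusted p over all probe sets = 0.0134), and 1 knockout array overlapped the wild types. The next brightest read 7.24, 7.38 and 7.52 in TNBS-treated knockouts and 7.50, 7.88 and 8.21 in TNBS-treated wild types, a difference of -0.48 (SE 0.13, adjusted p = 0.0264). It rose by 0.49 with TNBS in wild types (SE 0.15, adjusted p = 0.0278), against 0.18 in knockouts (adjusted p = 0.572). The fourth stood at the floor, and which transcripts each probe set reads was not analysed here.

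**Figure D3:**
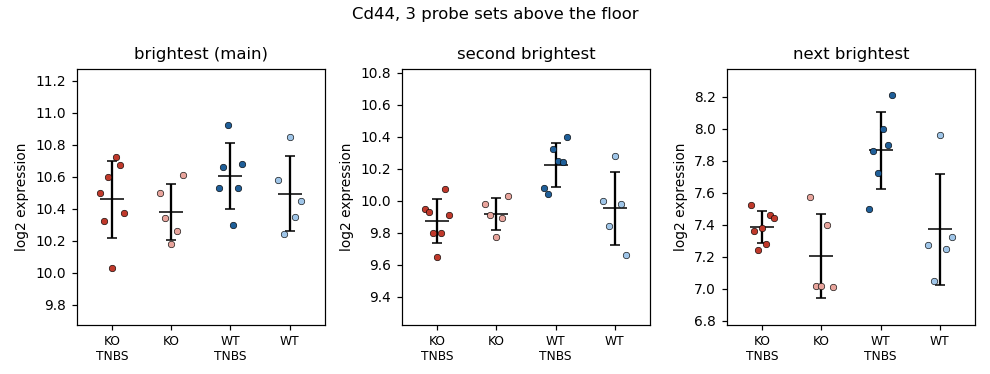
Log2 level (y axis) of the 3 Cd44 probe sets above the floor, by group (x axis), with mean ± SD. TNBS-treated wild types are highest in the middle and right panels, with medians of 10.24 and 7.88, against 9.91 and 7.38 in TNBS-treated knockouts.

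The other genes of the pathway were taken from 8 lists, 86 of them measured. With TNBS in wild types 6 rose and 6 fell, 14% of them, next to 10.2% higher and 6.27% lower among all genes. Rspo3, an R-spondin made by stromal cells, averaged 7.86 ± 0.14 with TNBS and 7.11 ± 0.18 untreated (SD), and was 0.75 higher (SE 0.13, adjusted p = 0.000644). Lgr4, an R-spondin receptor, fell by 0.33 (SE 0.07, adjusted p = 0.00263), and Lrp6, a Wnt co-receptor, fell by 0.22 (SE 0.06, adjusted p = 0.0218). Of 11 inhibitors, 2 rose: the secreted antagonist Sfrp1 by 0.57 and the membrane inhibitor Apcdd1 by 0.82 (adjusted p = 0.0164 and 0.00489). Tnfrsf19, a Wnt target found in crypt stem cells, fell by 0.62 (adjusted p = 0.0459). Wnt4 rose by 0.31 close to the floor, at 3.18 against 2.88. Tnfrsf19 was the 1 call of the other Wnt targets and Wnt4 the 1 call of the Wnt ligands. Over 38 alternative runs both counts ranged from 0 to 2, and they changed in 23 and 15 runs. The 14 measured genes of signal transduction, such as Ctnnb1 and Apc, gave 0 calls with limma in all 5 comparisons, with at most 1 at an unadjusted p under 0.05.

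Genes of neighbouring crypt pathways moved too. With TNBS in wild types the Notch target Hes1 fell by 0.52 and Atoh1, which directs the secretory fate, fell by 0.46 (adjusted p = 0.00669 and 0.0114). Grem1, a BMP antagonist of stromal cells, was 0.90 higher in wild types and 1.28 higher in knockouts (adjusted p = 0.00499 and 0.000689). Igfbp4, an IGF-binding protein, was 1.20 and 0.61 higher (adjusted p = 4.47e-05 and 0.0192). In knockouts 3 genes rose and 3 fell with TNBS, 6.98% of the 86, next to 4.08% higher and 4.47% lower among all genes. They include Znrf3, the homologue of Rnf43, which fell by 0.36, the receptor Fzd5, which fell by 0.32, and the inhibitor Frzb, which rose by 0.58 (adjusted p = 0.0138, 0.0182 and 0.00819). Cdca7, from the list of other crypt stem and progenitor markers, was lower too (difference -0.56, adjusted p = 0.00584).

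Between genotypes without TNBS 3 of the 86 genes passed, 3.49%, next to 2.92% higher and 1.91% lower among all genes. Frzb was lower in knockouts (difference -0.58, adjusted p = 0.0211). Lrig1, an inhibitor of ERBB receptors, and Rgmb, a BMP co-receptor, were 0.32 and 0.22 higher (adjusted p = 0.0484 and 0.0458). These 2 belong to the other crypt stem and progenitor markers, whose number of calls ranged from 0 to 3 over 38 alternative runs. It changed in at least 30 of them. With TNBS 2 were higher and 7 lower in knockouts, 10.5%, next to 3.73% higher and 6.72% lower among all genes. The Wnt ligand Wnt5b averaged 5.16 ± 0.23 in TNBS-treated knockouts and 5.70 ± 0.16 in TNBS-treated wild types (SD; difference -0.54, adjusted p = 0.0198). Ccnd1, which encodes cyclin D1, averaged 10.43 ± 0.18 in TNBS-treated knockouts and 10.78 ± 0.15 in TNBS-treated wild types (SD; difference -0.35, adjusted p = 0.02). Ephb3, Cdca7, Igfbp4, Jag1 and Bmp4 were also lower, by -0.68 to -0.24, and Lrp6 and the feedback inhibitor Nkd1 were higher by 0.18 and 0.53. Jag1 was the 1 call of the Notch list and Lrp6 the 1 call of the R-spondin and receptor list. Over 38 alternative runs these counts ranged from 0 to 2 and from 0 to 3, and each changed in 27 runs. In this comparison 4 of 10 leukocyte markers (Laptm5, Itgb2, Csf1r and Cd68) and 2 of 8 fibroblast markers (Col1a2 and Pdgfra) were lower in knockouts too. Of 7 skeletal muscle markers 0 passed with limma, 5 had an unadjusted p under 0.05, and their median difference was 1.77. In the difference of TNBS effects 0 of the 86 passed with limma, and 12 had an unadjusted p under 0.05.

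**Figure D4:**
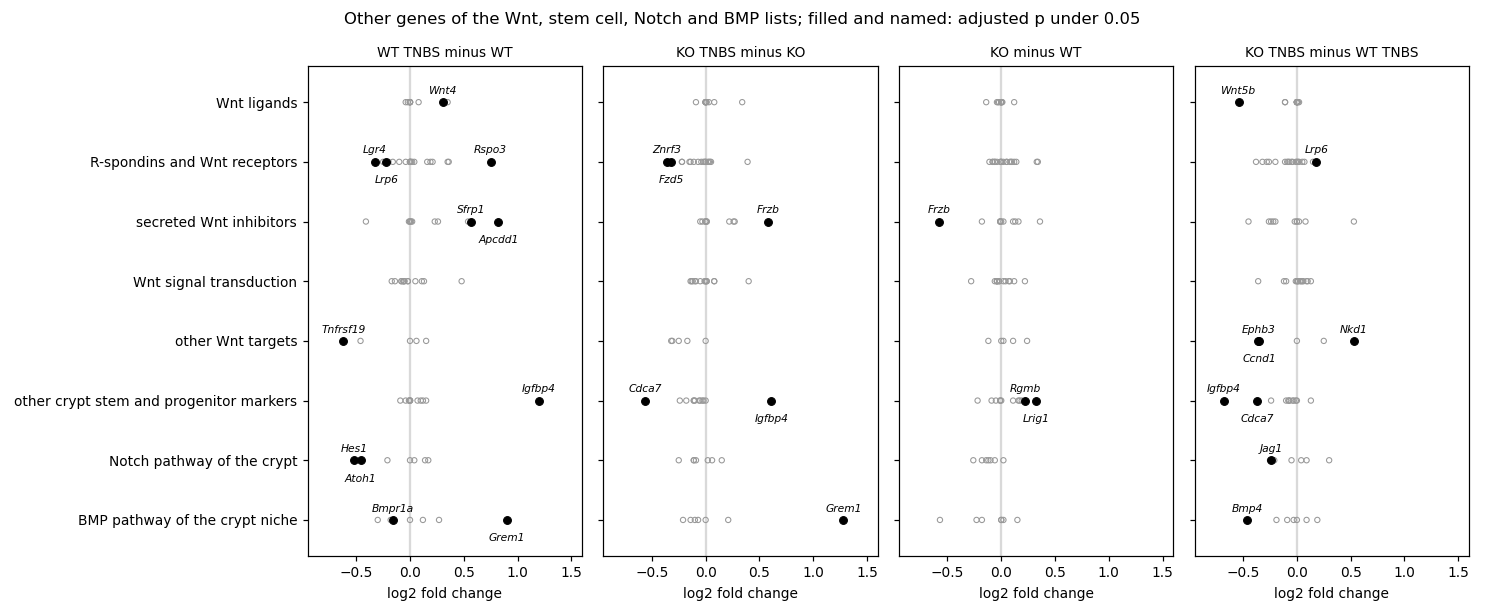
Log2 difference (x axis) of the measured genes of each list (y axis) in the 4 comparisons, 1 panel each; filled, named points passed at an adjusted p of 0.05. Passing genes lie on both sides of 0 in every panel, with Grem1 at 1.28 in knockouts and Igfbp4 at 1.20 in wild types farthest out.

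The colon samples are bulk tissue, so fewer cells of a type and less RNA per cell cannot be told apart. Markers of other cells moved with TNBS. Of 10 leukocyte markers 7 rose in knockouts and 9 in wild types; their summed linear signal, lowest to highest, was 9791 to 19899 in TNBS-treated knockouts, 7162 to 12249 in untreated knockouts, 20333 to 23984 in TNBS-treated wild types and 10533 to 14174 in untreated wild types. Of 8 fibroblast markers 3 rose in knockouts and 4 in wild types, with sums of 21909 to 28614 in TNBS-treated knockouts, 16314 to 21883 in untreated knockouts, 24616 to 35190 in TNBS-treated wild types and 21768 to 25716 in untreated wild types. With the mean of the fibroblast genes as a covariate, a setting chosen after the data were seen, none of the 4 wild-type TNBS calls passed: the differences were 0.28 for Smoc2, 0.41 for Rnf43, -0.79 for Ascl2 and -0.30 for Axin2 (adjusted p = 0.259, 0.15, 0.161 and 0.101). Against the values without it, that of Smoc2 was nearer 0 and those of the other 3 were farther from 0. Of 9 measured squamous markers 1 rose in knockouts and 3 in wild types, with sums of 300 to 5238 in TNBS-treated knockouts, 62 to 1336 in untreated knockouts, 351 to 2444 in TNBS-treated wild types and 56 to 295 in untreated wild types. With the squamous mean as a covariate none of the 4 passed either, at 0.38 for Smoc2, 0.40 for Rnf43, -0.62 for Ascl2 and -0.25 for Axin2 (adjusted p = 0.0643, 0.0798, 0.177 and 0.0982). Because markers of both lists themselves rose with TNBS, the part of the markers and that of TNBS cannot be told apart in these runs. No leukocyte covariate was fitted, and the part of leukocytes was not tested.

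Of 10 general epithelial markers, Epcam and Lgals4 were lower with TNBS in knockouts (differences -0.12 and -0.05, adjusted p = 0.026 and 0.00632). In wild types Krt18 was higher and Cdx1 lower with TNBS (differences 0.36 and -0.28, adjusted p = 1.02e-05 and 0.018). General epithelial markers summed to 111568 to 116907 in TNBS-treated knockouts, 117192 to 119674 in untreated knockouts, 113476 to 119215 in TNBS-treated wild types and 113691 to 117524 in untreated wild types. With their mean as a covariate Smoc2 alone of the 4 genes passed with TNBS in wild types, at 0.35 (adjusted p = 0.0152). Of 8 markers of differentiated colonocytes, Car4, Slc26a3 and Aqp8 fell with TNBS in knockouts and Aqp8 in wild types. The colonocyte sums were 79303 to 89427 in TNBS-treated knockouts, 89607 to 94989 in untreated knockouts, 76094 to 86959 in TNBS-treated wild types and 85097 to 91378 in untreated wild types. The knockout groups did not overlap for these sums, nor for those of general epithelium and of fibroblasts. In wild types the leukocyte and the squamous sums did not overlap. For single genes, groups did not overlap for 3.87% of all genes with TNBS in knockouts and 10.1% in wild types. Of 9 small intestinal markers, the apolipoproteins Apoa1, Apoa4 and Apoc3 fell with TNBS in knockouts, and 0 passed with limma in wild types (2 at an unadjusted p under 0.05). In knockouts these 3 apolipoproteins averaged 2.22 to 2.29 with TNBS, near the floor. Untreated knockouts averaged 7.08 to 7.85, with a wide spread between samples (SD 2.38 to 2.7). Sums over the whole small intestinal list were 11077 to 16715 in TNBS-treated and 14930 to 18612 in untreated knockouts. They were 10730 to 14629 in TNBS-treated and 12746 to 16737 in untreated wild types. The part of colonocyte and small intestinal markers was not tested. The 9 measured proliferation genes gave 0 calls with limma in any comparison, with 1 to 4 at an unadjusted p under 0.05.

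**Figure D5:**
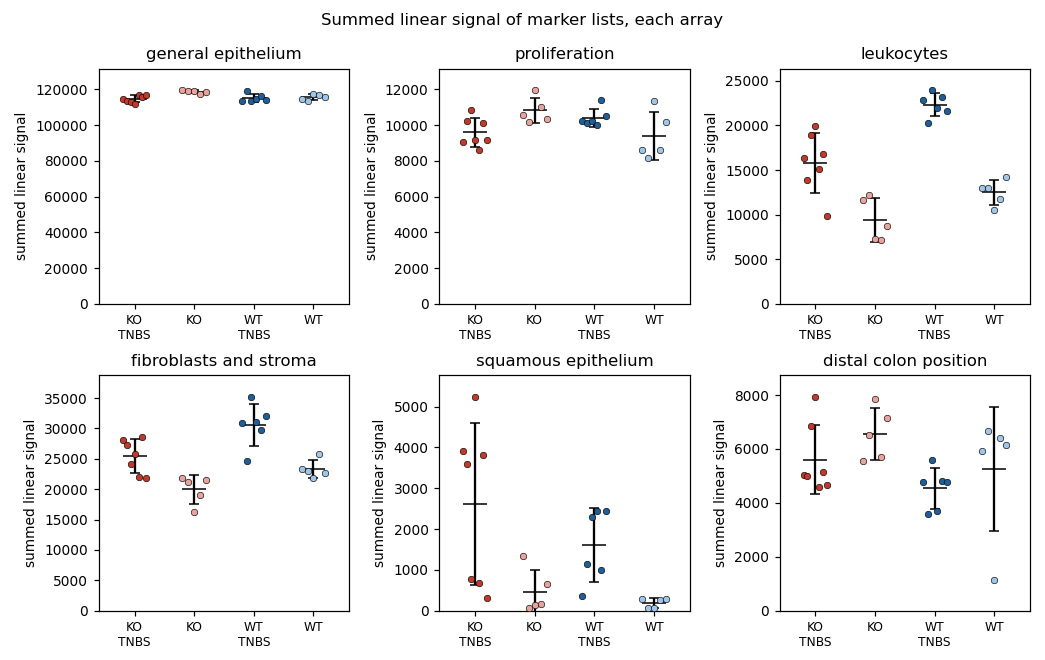
Summed linear signal (y axis) of 6 marker lists on every array, by group (x axis), with mean ± SD (bars end at 0). Leukocyte sums are highest in TNBS-treated wild types, at 20333 to 23984, and general epithelium sums lie within 111568 to 119674 on all arrays.

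Within groups, pairs of the 9 measured genes were compared across the 23 arrays after removal of group means, and 0 of 36 correlations passed after adjustment. Those with the smallest permutation p were Sox9 with Myc (Pearson r 0.65, permutation p = 0.00647, adjusted 0.168; Spearman rho 0.59, permutation p = 0.012, adjusted 0.432) and Ascl2 with Axin2 (r 0.53, permutation p = 0.00935, adjusted 0.168; rho 0.47, permutation p = 0.0262, adjusted 0.472). Without the 2 arrays farthest from the median of the first gene, r was 0.54 and 0.45. Within the 13 TNBS-treated and the 10 untreated arrays, r was 0.63 and 0.69 for Sox9 with Myc and 0.71 and 0.36 for Ascl2 with Axin2.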

How the data were processed

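Total RNA of 23 colon samples was measured on Affymetrix arrays. The authors deposited log2 values for 45101 probe sets, and, per the submitters' processing notes, RMA and GCRMA were used; the sources used here do not say which of the 2 gave these values, nor a version. Of the values, 27.9% stood at the lowest (2.17), so differences of genes there are understated. The platform annotation named the probe sets (34958 with 1 gene, 932 with several, 9211 unnamed), and 34754 gene IDs matched assembly GRCm38.p6. Each of 18194 genes was represented by its brightest probe set.

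A model with 1 mean per group was fitted with limma 3.58.1 in R 4.3.3 (19 residual degrees of freedom, 0.475 prior), with 5 contrasts and Benjamini-Hochberg adjustment over all genes; every adjusted p is from limma unless a permutation is named. Adjusted values of other probe sets are over all single-gene probe sets. Correlations used 100000 two-sided permutations within groups. The procedure was tested on simulated data. Named genes are all members, Tnfrsf12a, and up to 3 called genes of each list with the largest change; a selection is printed. The members and lists were chosen with earlier results of these data known. Alternatives changed the moderation, samples, array weights, filter, probe sets, normalization, floor, block, covariates and minimum size, and left out each array in turn. The number of arrays limits the precision.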

Additional observations from a re-analysis of the deposited data

Results flagged for a closer look

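Of 80 groups of values tested for a lone sample far from the others, 9 had one, and chance gives about 1 in 20. That rate does not hold for Olfm4 and Lgr5, where many arrays were tied at or near the floor, so the count cannot be set against it. Lgr5 was at 2.72 in TNBS-treated knockout replicate 5 (next 2.49), 2.85 in untreated knockout replicate 1 (next 2.56) and 2.81 in TNBS-treated wild-type replicate 1 (next 2.49), all near the floor. Olfm4 was at 2.20 in TNBS-treated knockout replicate 2 and untreated wild-type replicate 4, both next to 2.17, and at 3.18 in TNBS-treated wild-type replicate 6 (next 2.34). Tnfrsf12a was lowest, at 3.84, in TNBS-treated knockout replicate 5 (next 4.03). The summed proliferation signal was 11387 in TNBS-treated wild-type replicate 5 (next 10520). The summed signal of distal colon position genes was 1145 in untreated wild-type replicate 3 (next 5932), the array with the lowest untreated wild-type Ascl2.

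The TNBS effects of the genotypes differed for 1 gene of the marker lists, the epithelial keratin Krt18, by -0.30 (limma, adjusted p = 0.012). It averaged 13.61 in TNBS-treated and 13.55 in untreated knockouts, and 13.80 in TNBS-treated and 13.44 in untreated wild types.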

How the results depend on the processing

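No difference that passed in the main run or in an alternative run changed direction between them. Some differences that passed in neither changed sign, such as Myc with TNBS in wild types (-0.09 to 0.12). Of the covariates, the fibroblast mean and the mean of the distal colon position genes were chosen after the data were seen. The 4 calls with TNBS in wild types became 2 with the 2 compared groups alone and 1 with the epithelial mean as covariate. They became 0 with the squamous mean as covariate, with a minimum change of 0.25, and with the fibroblast mean as covariate (chosen after the data were seen). Leaving out 1 array gave 1 to 4. Over the 15 other settings Ascl2 lost its call in 6, Axin2 in 6, Smoc2 in 3 and Rnf43 in 7. Settings in which the count fell to 3 are not listed here. With the mean of probe sets the count stayed at 4 with other members: Cd44 passed (0.22, adjusted p = 0.0441) and Axin2 did not (-0.11, adjusted p = 0.0587). In knockouts the 0 calls became 1 with the mean of probe sets (Ascl2 -0.42, adjusted p = 0.04). The 1 call between untreated genotypes became 0 with the 2 groups alone, the epithelial mean, the fibroblast mean and the minimum change, and leaving out 1 array gave 0 to 1. The 1 call between TNBS-treated genotypes became 2 with the mean of probe sets (Cd44 -0.24, adjusted p = 0.0231) and 0 with the minimum change and the fibroblast mean. The difference of TNBS effects went to 1 call without dim genes. Over all genes, calls ranged from 625 to 4682 around 2998 with TNBS in wild types, 182 to 2239 around 1556 in knockouts, 61 to 1253 around 879 between untreated genotypes, 179 to 3345 around 1902 between TNBS-treated genotypes and 18 to 575 around 363 for the difference. The causes were not tested.

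Same-numbered samples correlated at -0.46 to 0.43 and 2 or 3 of 10 to 12 samples correlated best with their own number, so the numbers do not pair the samples. With the number as a replicate block, calls became 2 with TNBS in wild types and 0 between TNBS-treated genotypes (Axin2 0.25, adjusted p = 0.0568); elsewhere the counts of these genes did not change. The 27.9% of values at the floor limit Lgr5 and Olfm4.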
